A study of Mus musculus with 4 samples.

Results

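The genes of the translation initiation and elongation factors were examined in leukemia cells into which the transcription factor IRF4 was re-introduced. They comprised 64 of 55359 gene identifiers in the count table, namely the protein-coding genes (GENCODE mouse release 21) whose symbol starts with Eif or Eef and a digit, without the eIF2 kinases (*Eif2ak* genes). By this rule, 51 were initiation factor genes (*Eif*) and 13 elongation factor genes (*Eef*). The rule uses no measured value, but the genes were chosen with earlier results of these data known. T8 is a cell line derived from 1 primary B cell precursor leukemia of an *Irf4*-/- mouse and grown with IL-7. All 4 libraries share the *Irf4*-/- genotype. A retrovirus (RV) delivered either GFP by itself (EV-RV, the control) or GFP together with IRF4 (IRF4-RV). RNA of the cells alive 24 h later was sequenced in bulk, with 2 libraries per group that the series describes as biological replicates. The age and sex of the mouse were not given in the labels. The culture text in the labels names another line, T11, whereas titles and tissue name T8, which was used here. The study asked what forced IRF4 re-expression does to the leukemia cells.

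The libraries held between 31230223 and 37817752 counts. *Irf4*, the targeted gene, gave 8070 and 7600 counts in the EV-RV libraries against 95578 and 90693 in the IRF4-RV libraries. In the IRF4-RV libraries, these counts do not separate the vector from the endogenous locus. EV-RV carries no IRF4, and the source of the *Irf4* counts in its libraries was not tested. Of 9 B cell progenitor markers, 8 were expressed, and *Rag1* had at most 1 count in any library; their summed level was 3518 to 3685 CPM (counts scaled to the TMM-adjusted library size) with EV-RV and 2482 to 2488 CPM with IRF4-RV. All 5 T cell markers together stayed at or under 0.210 CPM, and 3 erythroid markers between 3.66 and 5.11 CPM, nearly all of it *Hbb-bs*. Of 4 macrophage markers, *Csf1r*, *Adgre1* and *Lyz2* had at most 3 counts in any library, and *Mrc1* brought their sum from 0.809 and 0.825 CPM to 7.68 and 6.37 CPM. The stromal markers *Col1a1*, *Col1a2*, *Pdgfrb* and *Cxcl12* summed to 41.3 and 76.02 CPM with EV-RV and to 39.0 and 187 CPM with IRF4-RV, highest in replicate 2; none of the 4 passed the test, and T8 was first grown on stromal cells. The part of these cells in the results was not tested. Fits without each library are described for the called factor genes. In bulk RNA, fewer cells of a type and less RNA per cell cannot be told apart.

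Initiation factors bring the small ribosomal subunit, the initiator tRNA and an mRNA together: eIF4F binds the cap of the mRNA, eIF2 delivers the tRNA and is recharged with GTP by eIF2B, eIF3 holds the small subunit, and eIF1, eIF1A and eIF5 act in finding the start codon. Elongation factors then work in each cycle of the ribosome, with eEF1A bringing tRNAs, eEF1B recharging eEF1A with GTP and eEF2 moving the ribosome along. Lymphocyte progenitors that divide rapidly depend on a high rate of protein synthesis, and much of its control acts on initiation.

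With IRF4-RV, initiation factor genes fell more often than they rose, whereas the genes of eEF1A, eEF1B alpha and eEF2 rose by about the same fold. Of the 64 genes, 59 passed edgeR's filter on low counts and were tested. At an adjusted p under 0.1, 6 were higher and 21 were lower with IRF4-RV. Among all 14637 genes tested, 29.7% were called, 16% higher and 13.7% lower. Of 47 initiation factor genes tested, 3 were higher, 19 lower and 25 not called, and their median log2 fold change was -0.13 (-0.22 with library size only, that is, without TMM factors, with 2 higher and 24 lower). Of 12 elongation factor genes tested, 3 were higher, 2 lower and 7 not called, and the median was 0.089 (-0.0021 with library size only, with 2 higher and 3 lower). The median of all genes was 0.0073, and -0.083 with library size only, under which 1743 genes were higher and 2867 lower in place of 2340 and 2009. The CPM of the EV-RV and IRF4-RV libraries did not overlap for 40 of the 59 genes (67.8%), against 61.3% of all genes tested.

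**Figure D1:**
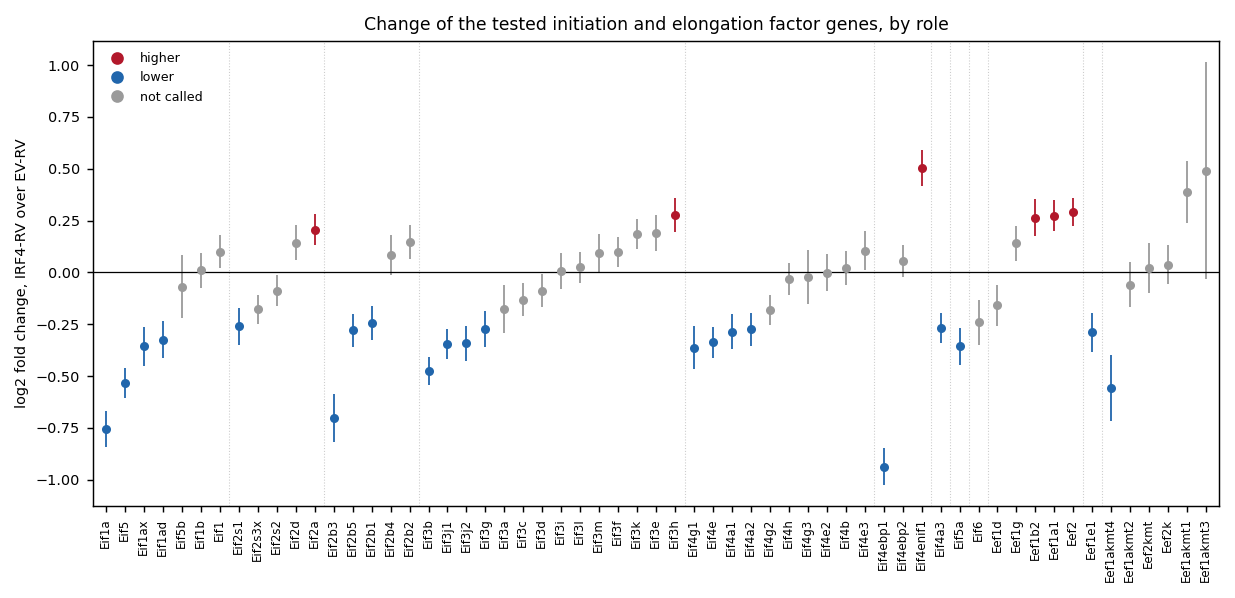
The log2 fold change of IRF4-RV over EV-RV (y axis) is plotted for each of the 59 tested factor genes (x axis), grouped by role between dotted lines. Bars are standard errors from the edgeR fit, and colors give the 6 genes called higher, the 21 called lower and the 32 not called.

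The other 5 genes had too few counts for the test. *Eef1a2* had 0 and 0 counts in EV-RV and 2 and 0 in IRF4-RV libraries, *Eif2s3y* 0 and 1 counts in EV-RV and 0 and 0 in IRF4-RV libraries, and *Eif4e1b* 3 and 0 counts in EV-RV and 0 and 0 in IRF4-RV libraries. *Eif4ebp3* had 0 and 0 counts in EV-RV and 1 and 1 in IRF4-RV libraries, and *Eif5a2* 6 and 1 counts in EV-RV and 2 and 6 in IRF4-RV libraries. Of these, *Eif5a2* alone was above 3 counts in any library, the floor taken for detection, which corresponds to 0.0824 to 0.0952 CPM and covers counting error only. Each has a paralog that was expressed in T8 cells, given with its role.

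In summed counts, initiation factor genes took 1.65% and 1.67% of all counts in the EV-RV libraries, and 1.40% and 1.40% in the IRF4-RV libraries. Elongation factor genes took 2.87% and 2.90% of all counts in the EV-RV libraries, and 3.18% and 3.32% in the IRF4-RV libraries. The ratio of elongation to initiation counts does not depend on the scaling of the libraries, and it was 1.74 and 1.74 in the EV-RV libraries and 2.28 and 2.37 in the IRF4-RV libraries. Both IRF4-RV libraries lay above both EV-RV libraries, with means of 1.74 ± 0.00118 and 2.32 ± 0.0610 (SD, n = 2 each). With 2 libraries against 2, an exact two-sided permutation test cannot give a p below 0.333, so this difference was not tested further. *Eef1a1* and *Eef2* held most of the elongation counts. Without these genes the ratio was 0.247 and 0.262 in the EV-RV libraries and 0.304 and 0.323 in the IRF4-RV libraries, again without overlap. When genes were split by function instead of symbol, with the eIF5A genes among elongation factors and binding proteins and modifying enzymes in neither group, the ratio was 2.36 and 2.43 in the EV-RV libraries and 2.97 and 3.11 in the IRF4-RV libraries.

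Among the elongation factors, 3 subunit genes rose, and 1 gene of a modifying enzyme and 1 of a complex partner fell. *Eef1a1* (ENSMUSG00000037742, chr9:78478449-78489151, minus strand; all coordinates are from GRCm38) encodes eEF1A1, the carrier of aminoacyl-tRNAs. It stood at 14576 and 15396 CPM in the EV-RV libraries and 17498 and 18742 CPM in the IRF4-RV libraries, and took more counts than any other gene, 1.53% to 1.80% of a library. The IRF4-RV libraries were both higher than the EV-RV libraries (log2 fold change 0.27, standard error 0.0733, edgeR adjusted p = 0.0323). The translocase gene *Eef2* (ENSMUSG00000034994, chr10:81176631-81182498, plus strand) went from 8785 and 9017 CPM to 10797 and 11018 CPM (log2 fold change 0.29, standard error 0.0676, edgeR adjusted p = 0.0178). *Eef1b2*, coding for the exchange factor eEF1B alpha, went from 1129.5 and 1282 CPM to 1391 and 1506 CPM (log2 fold change 0.26, standard error 0.0877, edgeR adjusted p = 0.0683). These 3 genes were called higher, with changes between 0.26 and 0.29 on the log2 scale. With single libraries left out, the adjusted p of *Eef1a1* was 0.144 without IRF4-RV replicate 1 and 0.346 without IRF4-RV replicate 2, that of *Eef2* 0.166 without IRF4-RV replicate 1 and 0.206 without IRF4-RV replicate 2, and that of *Eef1b2* 0.197 without EV-RV replicate 1, 0.126 without IRF4-RV replicate 1 and 0.377 without IRF4-RV replicate 2. With library size only, the log2 fold changes were 0.18 for *Eef1a1*, 0.20 for *Eef2* and 0.18 for *Eef1b2*, and *Eef1b2* lost its call (edgeR adjusted p = 0.121).

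The other subunits of the eEF1B complex did not pass the test. *Eef1g*, for eEF1B gamma, stood at 2222 and 2469 CPM in the EV-RV libraries and 2482 and 2686 CPM in the IRF4-RV libraries (log2 fold change 0.14, edgeR adjusted p = 0.282), with groups that did not overlap. *Eef1d*, for eEF1B delta, was listed at 311 and 369 CPM in the EV-RV libraries and 292 and 317 CPM in the IRF4-RV libraries (log2 fold change -0.16, edgeR adjusted p = 0.293), and its groups overlapped. Thus 3 of the 5 tested eEF1 and eEF2 subunit genes were higher (60%, against 16% of all genes tested) and none lower. Their median was 0.26 (0.18 with library size only, with 2 higher and 1 lower). *Eef1e1*, named for the complex but known as a scaffold component of the aminoacyl-tRNA synthetases, went from 76.04 and 88.8 CPM to 68.3 and 66.5 CPM and was called lower (log2 fold change -0.29, standard error 0.0946, edgeR adjusted p = 0.0649). Its adjusted p was 0.270 without EV-RV replicate 2 and 0.217 without IRF4-RV replicate 2.

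*Eef2k* encodes the kinase that phosphorylates and inhibits eEF2. Its level was 79.6 and 73.4 CPM in the EV-RV libraries and 83.9 and 73.2 CPM in the IRF4-RV libraries, the groups overlapped, and it was not called (log2 fold change 0.037, edgeR adjusted p = 0.822, and -0.054 with library size only). Of the 5 methyltransferase genes that act on eEF1A or eEF2, *Eef1akmt4* was called lower, from 11.5 and 15.0 CPM to 8.24 and 9.72 CPM (log2 fold change -0.56, standard error 0.160, edgeR adjusted p = 0.0419), and its adjusted p was 0.194 without EV-RV replicate 2. Reads of *Eef1akmt4* are uncertain, since the gene shares 495 exonic bases on the same strand with the annotated readthrough gene *Gm49333*. *Eef1akmt1* reached 0.39 without passing the test (edgeR adjusted p = 0.1096), and *Eef1akmt3*, at no more than 18 counts in any library, had a standard error of 0.524. *Eef1akmt2* and *Eef2kmt* lay at -0.059 and 0.021.

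**Figure D2:**
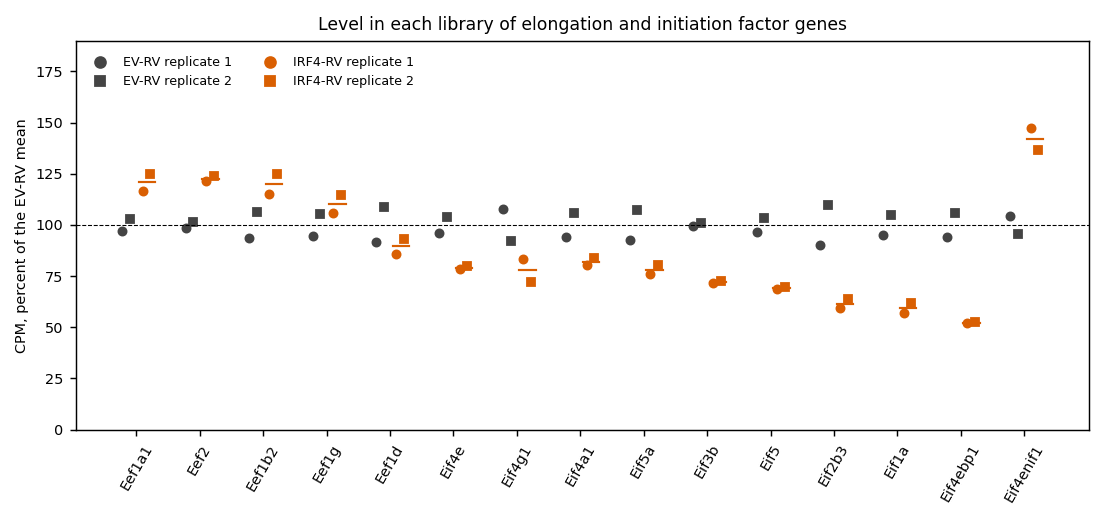
The level of 15 factor genes in each library is given as a percent of the EV-RV mean in CPM (y axis), with circles for replicate 1, squares for replicate 2 and a line at the IRF4-RV mean. The orange IRF4-RV points lie above both EV-RV points for Eef1a1, Eef2, Eef1b2, Eef1g and Eif4enif1, below both for the genes from Eif4e to Eif4ebp1, and between the EV-RV points for replicate 2 of Eef1d.

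Start codon selection and subunit joining held 2 of the initiation factor genes that fell most. Of 7 genes tested, 4 were lower (57.1%, against 13.7% of all genes tested) and none higher. The 4 include *Eif1ad*, whose own part in this step was not examined. *Eif1a*, one of a pair of genes for eIF1A, which helps the small subunit scan the mRNA, went from 137 and 151 CPM to 81.8 and 89.2 CPM (log2 fold change -0.75, standard error 0.0869, edgeR adjusted p = 0.000788). Its X-linked paralog *Eif1ax* went from 211 and 243 CPM to 169 and 186 CPM (log2 fold change -0.36, standard error 0.0924, edgeR adjusted p = 0.0285), so both genes for eIF1A were lower, and the difference between them was not tested. *Eif5* (ENSMUSG00000021282, chr12:111538016-111546752, plus strand), for the protein that triggers GTP hydrolysis by eIF2 at the start codon, went from 408 and 437 CPM to 289 and 294 CPM (log2 fold change -0.53, standard error 0.0729, edgeR adjusted p = 0.00177). Within each group the libraries of *Eif5* lay close together, and the groups were well apart. *Eif1ad*, a relative of eIF1A by its fold, was also lower (log2 fold change -0.33, edgeR adjusted p = 0.0360). *Eif1a* and *Eif5* were called with any library left out, with log2 fold changes between -0.83 and -0.68 and between -0.59 and -0.48. The adjusted p of *Eif1ax* was 0.106 without EV-RV replicate 2 and 0.102 without IRF4-RV replicate 1, and that of *Eif1ad* was 0.147 without EV-RV replicate 2 and 0.161 without IRF4-RV replicate 2.

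The genes for eIF1 and eIF5B did not pass the test. *Eif1*, whose product guards against initiation at wrong codons, stood at 378 and 423 CPM in the EV-RV libraries and 421 and 438 CPM in the IRF4-RV libraries (log2 fold change 0.10, edgeR adjusted p = 0.426), and *Eif1b*, its paralog, at 53.5 and 57.4 CPM in the EV-RV libraries and 54.7 and 57.0 CPM in the IRF4-RV libraries (log2 fold change 0.010, edgeR adjusted p = 0.948). The groups overlapped for both. *Eif5b*, for the GTPase that joins the subunits, had a log2 fold change of -0.070 with a standard error of 0.152.

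Of 5 tested genes for eIF2 and delivery of the initiator tRNA, 1 was lower (20%) and 1 higher (20%). These shares are near the 13.7% lower and 16% higher of all genes tested. *Eif2s1*, for eIF2 alpha, the subunit that stress kinases phosphorylate, went from 232 and 266 CPM to 199.9 and 216 CPM and was called lower (log2 fold change -0.26, standard error 0.0896, edgeR adjusted p = 0.0764). Its adjusted p was 0.281 without EV-RV replicate 2, 0.269 without IRF4-RV replicate 1 and 0.119 without IRF4-RV replicate 2, so the call rested on all libraries but EV-RV replicate 1. *Eif2s2*, for eIF2 beta, was not called (log2 fold change -0.088, edgeR adjusted p = 0.460). *Eif2s3x*, for eIF2 gamma, stood at 395 and 415 CPM in the EV-RV libraries and 358 and 358 CPM in the IRF4-RV libraries without passing the test (log2 fold change -0.18, edgeR adjusted p = 0.117), and its Y-linked paralog *Eif2s3y* had at most 1 count. *Eif2a*, whose product delivers the initiator tRNA by another route, was called higher, from 152 and 164 CPM to 181 and 183 CPM (log2 fold change 0.21, standard error 0.0750, edgeR adjusted p = 0.0909). Its adjusted p was 0.297 without EV-RV replicate 1, 0.358 without IRF4-RV replicate 1 and 0.363 without IRF4-RV replicate 2, 0.102 with DESeq2 and 0.239 with library size only. *Eif2d*, of similar function, lay at 0.14 (edgeR adjusted p = 0.278).

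Of the 5 genes for eIF2B, 3 were lower (60%, against 13.7% of all genes tested) and none higher. *Eif2b3* (ENSMUSG00000028683, chr4:117019402-117087306, plus strand), for the gamma subunit, had the largest change, from 33.0 and 40.2 CPM to 21.7 and 23.3 CPM (log2 fold change -0.70, standard error 0.117, edgeR adjusted p = 0.00442). It was called with any library left out, with values between -0.85 and -0.55. The catalytic epsilon subunit gene *Eif2b5* went from 133 and 138 CPM to 107 and 117 CPM (log2 fold change -0.28, standard error 0.0794, edgeR adjusted p = 0.0401), and *Eif2b1*, for the regulatory alpha subunit, was lower by a similar amount (log2 fold change -0.24, edgeR adjusted p = 0.0730). The adjusted p of *Eif2b5* was 0.117 without EV-RV replicate 2 and 0.247 without IRF4-RV replicate 1, and that of *Eif2b1* was 0.206 without EV-RV replicate 2, 0.339 without IRF4-RV replicate 1 and 0.176 without IRF4-RV replicate 2. *Eif2b2* and *Eif2b4*, for the beta and delta subunits, lay at 0.15 and 0.086 and were not called.

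eIF3 is the largest initiation complex, and its 14 genes split in both directions. Of the 14, 4 were lower (28.6%, against 13.7% of all genes tested) and 1 was higher (7.14%, against 16%). The other 9 were not called, and the median was -0.041. *Eif3b* (ENSMUSG00000056076, chr5:140419328-140443360, plus strand), for a core scaffold subunit, went from 726 and 737 CPM to 523 and 529 CPM (log2 fold change -0.47, standard error 0.0688, edgeR adjusted p = 0.00234). Its replicates lay close together, and with single libraries left out the log2 fold change stayed between -0.49 and -0.46. *Eif3a*, for the other large core subunit, stood at 572 and 470.5 CPM in the EV-RV libraries and 499 and 424 CPM in the IRF4-RV libraries with overlapping groups and was not called (log2 fold change -0.18, edgeR adjusted p = 0.328). *Eif3h*, for a subunit of the outer module, was the gene called higher, from 542 and 606 CPM to 676 and 714 CPM (log2 fold change 0.28, standard error 0.0822, edgeR adjusted p = 0.0475). The adjusted p of *Eif3h* was 0.145 without EV-RV replicate 1, 0.126 without IRF4-RV replicate 1 and 0.279 without IRF4-RV replicate 2.

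*Eif3j1* and *Eif3j2* code for the loosely bound j subunit and are near-identical in sequence, so reads could be split between them. *Eif3j1* went from 148 and 147 CPM to 116 and 116 CPM (log2 fold change -0.35, edgeR adjusted p = 0.0110) and *Eif3j2* from 58.6 and 55.4 CPM to 44.0 and 45.9 CPM (log2 fold change -0.34, edgeR adjusted p = 0.0227), both called lower. *Eif3g*, for a subunit that takes part in scanning, was also lower (log2 fold change -0.27, edgeR adjusted p = 0.0611). *Eif3j1* was called with any library left out, the adjusted p of *Eif3j2* was 0.104 without IRF4-RV replicate 1, and that of *Eif3g* was 0.234 without EV-RV replicate 2, 0.194 without IRF4-RV replicate 1 and 0.136 without IRF4-RV replicate 2. The other 8 genes, *Eif3c*, *Eif3d*, *Eif3e*, *Eif3f*, *Eif3i*, *Eif3k*, *Eif3l* and *Eif3m*, lay between -0.13 and 0.19, and none passed the test. Counts of *Eif3d* are uncertain, because 2151 of its exonic bases overlap the antisense gene *Gm17638*.

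eIF4F consists of the cap binding protein eIF4E, the scaffold eIF4G and the helicase eIF4A, and the major gene for each was lower with IRF4-RV. *Eif4e* (ENSMUSG00000028156, chr3:138526179-138559696, plus strand) went from 163 and 177 CPM to 134 and 136 CPM (log2 fold change -0.34, standard error 0.0764, edgeR adjusted p = 0.0167), and it was called with any library left out. *Eif4g1* went from 552 and 473 CPM to 426 and 371 CPM (log2 fold change -0.36, standard error 0.103, edgeR adjusted p = 0.0396), and its groups did not overlap although replicates lay farther apart than for *Eif4e*. *Eif4a1* went from 1223 and 1379 CPM to 1043 and 1091 CPM (log2 fold change -0.29, standard error 0.0830, edgeR adjusted p = 0.0436), and its paralog *Eif4a2* from 71.2 and 77.1 CPM to 61.6 and 61.0 CPM (log2 fold change -0.27, edgeR adjusted p = 0.0462). The adjusted p of *Eif4g1* was 0.139 without EV-RV replicate 1 and 0.234 without IRF4-RV replicate 2. That of *Eif4a1* was 0.131 without EV-RV replicate 2, 0.186 without IRF4-RV replicate 1 and 0.145 without IRF4-RV replicate 2, and that of *Eif4a2* was 0.174 without EV-RV replicate 2, 0.137 without IRF4-RV replicate 1 and 0.226 without IRF4-RV replicate 2.

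The paralogs of eIF4G and eIF4E did not pass the test. *Eif4g2*, for a relative of eIF4G that lacks the eIF4E binding part, stood at 1279.9 and 1307 CPM in the EV-RV libraries and 1162 and 1119 CPM in the IRF4-RV libraries (log2 fold change -0.18, edgeR adjusted p = 0.109), with groups that did not overlap. *Eif4g3*, the closer paralog of *Eif4g1*, stood at 61.2 and 47.4 CPM in the EV-RV libraries and 56.8 and 50.3 CPM in the IRF4-RV libraries (log2 fold change -0.023, edgeR adjusted p = 0.925), and its groups overlapped. Differences between these genes and *Eif4g1* were not tested. *Eif4e2* and *Eif4e3*, for other cap binding proteins, lay at -0.00090 and 0.10, and *Eif4b* and *Eif4h*, cofactors of the helicase, at 0.021 and -0.032.

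Proteins that bind and hold back eIF4E gave the largest changes in either direction. *Eif4ebp1* (ENSMUSG00000031490, chr8:27260329-27276674, plus strand), for 4E-BP1, the repressor that mTORC1 releases from eIF4E, had the largest fall of all tested factor genes, from 97.7 and 110.1 CPM to 53.9 and 54.7 CPM (log2 fold change -0.94, standard error 0.0873, edgeR adjusted p = 0.000273). The IRF4-RV libraries lay at about the same level, well under both EV-RV libraries, and the value stayed between -1.03 and -0.85 with single libraries left out. *Eif4ebp2*, for 4E-BP2, stood at 339.9 and 339 CPM in the EV-RV libraries and 370.4 and 335 CPM in the IRF4-RV libraries, overlapped between groups and was not called (log2 fold change 0.054, edgeR adjusted p = 0.673, and -0.036 with library size only). *Eif4enif1* (ENSMUSG00000020454, chr11:3202392-3244588, plus strand), for the transporter 4E-T, which carries eIF4E into the nucleus and to processing bodies, had the largest rise among called genes, from 52.9 and 48.4 CPM to 74.5 and 69.1 CPM (log2 fold change 0.50, standard error 0.0882, edgeR adjusted p = 0.00554). It was called with any library left out, with values between 0.43 and 0.56.

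*Eif5a* (ENSMUSG00000078812, chr11:69916714-69921958, minus strand), whose product carries the amino acid hypusine and is known to act mainly in elongation and termination despite its name, went from 2280.4 and 2637 CPM to 1865 and 1979 CPM and was lower (log2 fold change -0.36, standard error 0.0892, edgeR adjusted p = 0.0256). It was called with any library left out, between -0.47 and -0.24. Its direction was thus the opposite of that of *Eef1a1* and *Eef2*. *Eif6*, for the factor that keeps free large subunits from joining, stood at 255 and 303 CPM in the EV-RV libraries and 217 and 254 CPM in the IRF4-RV libraries and did not pass the test (log2 fold change -0.24, edgeR adjusted p = 0.163), although its groups did not overlap. *Eif4a3*, for a helicase of the exon junction complex named after eIF4A, was lower (log2 fold change -0.27, edgeR adjusted p = 0.0338), with an adjusted p of 0.208 without IRF4-RV replicate 1 and 0.128 without IRF4-RV replicate 2.

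**Figure D3:**
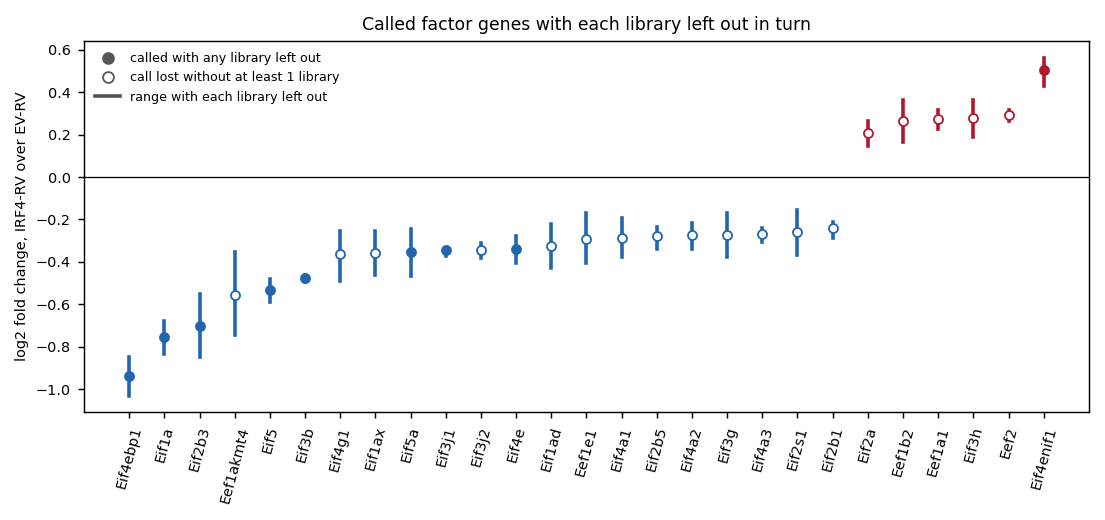
For the 27 called factor genes (x axis), points give the log2 fold change of IRF4-RV over EV-RV (y axis) and lines its range with each library left out in turn. Filled points mark the 9 genes called in all 4 of these fits, open points the 18 that lost the call in at least 1.

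Of the 27 called genes, all kept their direction with each of the 4 libraries left out, and 9 also kept their call each time. These were the initiation factor genes *Eif1a*, *Eif2b3*, *Eif3b*, *Eif3j1*, *Eif4e*, *Eif4ebp1*, *Eif5* and *Eif5a*, all lower, and *Eif4enif1*, which was higher. None of the 5 called elongation factor genes was among them. Initiation and elongation are used here by symbol. With the split by role, *Eif4ebp1* and *Eif4enif1* are in neither group, and *Eif5a* is with the elongation factor genes. In the fits with a library left out, a group with 1 library left is assumed to vary like the other group. On simulated counts in which 200 of 14637 genes were changed, the test recovered 7.89% of genes changed by 0.3 on the log2 scale. It recovered 42.5% at 0.5 and 70.8% at 1, and 18.4% of its calls were false. In the data 4349 genes (29.7%) were called, far more than were changed in the simulation. The simulated shares therefore cannot be carried over to the real calls.

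Levels between genes were compared as CPM per kilobase of exon, averaged over the 4 libraries. *Eef1a1* came first at 6639.7 CPM per kb, followed by *Eef2* at 2979.6, *Eef1g* at 948 and *Eif5a* at 922. The level of *Eef1b2* was 524 CPM per kb and that of *Eif3h* 394. Among the genes of eIF4F, *Eif4a1* stood at 273, *Eif4g1* at 62.4 and *Eif4e* at 25.4 CPM per kb. The eIF2B gene that fell most, *Eif2b3*, had the lowest level of its complex, 4.54 CPM per kb against 47.7 for *Eif2b5* and 47.5 for *Eif2b2*. Within paralog pairs, *Eif4a1* was above *Eif4a2* (12.7), *Eif4ebp2* (59.8) above *Eif4ebp1* (36.0), and *Eif1* (198) above *Eif1b* (49.5). *Eif1ax* (38.4) was above *Eif1a* (27.6), whereas *Eif3j1* (22.6) and *Eif3j2* (21.4) were at nearly the same level. Exon length here is that of all annotated exons of a gene merged, which lowers the value of genes with long alternative exons.

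**Figure D4:**
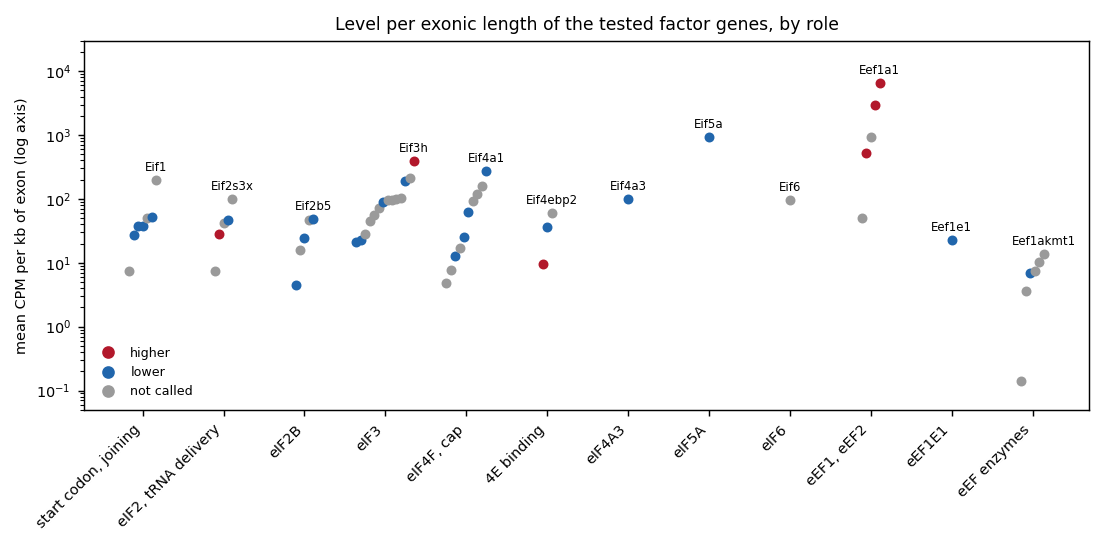
The mean level of the 59 tested factor genes over the 4 libraries is plotted in CPM per kilobase of exon (log y axis), by role (x axis), and the highest gene of each role is named. The 3 highest genes, Eef1a1, Eef2 and Eef1g, are eEF1 and eEF2 subunits, and the enzymes that modify elongation factors lie at or under 13.7 CPM per kb.

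Promoter sequence was examined for the E-box CACGTG, the core motif bound by MYC and its relatives, and *Myc* itself went from 279 and 283 CPM to 142 and 123 CPM (log2 fold change -1.09, edgeR adjusted p = 0.000133); the part of *Myc* in the changes was not tested. RefSeq windows of 300 bases (250 before to 50 after a start site of transcription, GRCm38.p6) were at hand for 48 of the 64 genes, 62 windows in all. These start sites can differ from the ends of the gene coordinates given above. The E-box, which reads the same on both strands, was in the window of 13 of 48 factor genes (27.1%) and of 8.09% of 27025 genes with a window. The 27025 genes were not limited to genes expressed in T8 cells, so these sets are unlike, and their shares were not tested. Among factor genes the E-box was present for 5 of 17 that were lower (29.4%), 1 of 5 that were higher, 6 of 23 not called (26.1%) and 1 of 3 not tested. The interferon-stimulated response element, a motif bound by IRF proteins, was searched on both strands as GAAA, any 2 bases and GAAA. Sites that IRF proteins share with partner factors were not searched. The response element was in the window of 3 of the 48 factor genes (6.25%) and of 3.99% of all genes with a window. Among factor genes it was present for 1 of 17 that were lower and 0 of 5 that were higher. The E-boxes of the eIF4F genes, of *Eif5a* and of *Eef2* are shown because these genes were called in opposite directions. The sequences run 5′ to 3′ on the strand of the gene, with the E-box in capitals. They lie at chr3:138527192-138527221 for *Eif4e* (plus strand), chr16:20672661-20672690 for *Eif4g1* (plus strand), chr11:69672595-69672624 for *Eif4a1* (minus strand), chr11:69921443-69921472 for *Eif5a* (minus strand) and chr10:81176576-81176605 for *Eef2* (plus strand).
Eif4e: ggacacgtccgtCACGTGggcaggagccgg
Eif4g1: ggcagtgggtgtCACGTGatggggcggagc
Eif4a1: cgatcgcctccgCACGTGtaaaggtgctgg
Eif5a: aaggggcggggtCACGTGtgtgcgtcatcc
Eef2: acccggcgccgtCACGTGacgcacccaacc
*Eif4e* and *Eif4g1* each hold a second E-box in the same window, and *Eif5a* one in the window of another start site. A match describes these letters and is not evidence of binding.

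Among genes that gate these factors, *Eif2ak2* rose most. Of 72 pathway genes in 9 lists, 68 were tested, with 10 higher (14.7%), 17 lower (25%) and a median of -0.10. Among all genes tested, 16% were higher and 13.7% lower. eIF2 kinases phosphorylate eIF2 alpha and so slow initiation. Of the 4, *Eif2ak2* (PKR, activated by double-stranded RNA and induced by interferon) went from 33.1 and 21.8 CPM to 76.1 and 70.3 CPM (log2 fold change 1.41, edgeR adjusted p = 0.00108). *Eif2ak1* (HRI) went from 50.1 and 46.6 CPM to 73.2 and 66.4 CPM (log2 fold change 0.53, edgeR adjusted p = 0.00466) and *Eif2ak3* (PERK) from 12.5 and 11.3 CPM to 17.8 and 16.1 CPM (log2 fold change 0.51, edgeR adjusted p = 0.0161). *Eif2ak4* (GCN2) was not called (log2 fold change -0.17, edgeR adjusted p = 0.521). Thus 3 of 4 kinase genes were higher, each with any library left out.

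Transcript levels do not show the phosphorylation of eIF2 alpha. *Atf4*, whose translation rises when eIF2 alpha is phosphorylated, was lower as a transcript, from 180.1 and 183 CPM to 125 and 134 CPM (log2 fold change -0.49, edgeR adjusted p = 0.00318), and so was its target *Trib3*, at under 6 CPM in every library (log2 fold change -1.25, edgeR adjusted p = 0.00870). *Ppp1r15a* and *Ppp1r15b*, for subunits that guide a phosphatase to eIF2 alpha, were not called (log2 fold changes 0.34 and -0.0031).

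Of 19 tested genes of mTORC1 and its effectors, 4 were higher (21.1%) and none lower. The share called higher was near the 16% of all genes tested. *Mtor*, the kinase of the complex, went from 274 and 214 CPM to 462 and 394 CPM (log2 fold change 0.81, edgeR adjusted p = 0.00349), and *Sesn3*, for an inhibitor upstream of mTORC1, went from 38.3 and 33.7 CPM to 66.0 and 60.9 CPM (log2 fold change 0.82, edgeR adjusted p = 0.000968). *Pdcd4*, for an inhibitor of eIF4A, was higher (log2 fold change 0.36, edgeR adjusted p = 0.0951), as was *Mknk1*, for a kinase of eIF4E (log2 fold change 0.28, edgeR adjusted p = 0.0457). *Mknk2*, at 0.14, and *Ddit4*, for another mTORC1 inhibitor, at 0.30, did not pass the test. The adjusted p of *Pdcd4* was 0.336 without EV-RV replicate 2 and 0.333 without IRF4-RV replicate 1, and that of *Mknk1* was 0.147 without EV-RV replicate 1, 0.199 without IRF4-RV replicate 1 and 0.217 without IRF4-RV replicate 2. With library size only, the adjusted p was 0.254 for *Pdcd4* and 0.128 for *Mknk1*, and with the size factors of DESeq2 it was 0.101 for *Pdcd4*. Among poly(A) binding proteins and partners, *Paip2* (0.50) and *Paip2b* (0.24), for inhibitors of the poly(A) binding protein, were higher and *Pabpc4* (-0.29) was lower, of 5 tested. *Paip2* was called with any library left out, the adjusted p of *Paip2b* lay between 0.128 and 0.381 (0.226 with library size only and 0.163 with DESeq2), and the adjusted p of *Pabpc4* was 0.114 without IRF4-RV replicate 1 and 0.195 without IRF4-RV replicate 2.

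Of 7 tested genes for termination, recycling and rescue, 4 were lower (57.1%, against 13.7% of all genes tested) and none higher. They were *Etf1*, *Gspt1*, *Abce1* and *Denr*, between -0.40 and -0.26. Of 6 initiation helpers with other names, 4 were lower (66.7%), namely *Ddx3x*, *Dhx29*, *Bzw1* and *Bzw2*. Of these 8, *Abce1* alone was called with any library left out. Without IRF4-RV replicate 2 the other 7 had adjusted p between 0.102 and 0.470, without EV-RV replicate 2 *Etf1*, *Denr*, *Bzw1* and *Bzw2* lay between 0.123 and 0.139, without IRF4-RV replicate 1 *Etf1*, *Denr* and *Bzw1* lay between 0.127 and 0.180, and without EV-RV replicate 1 *Ddx3x* had 0.168 and *Dhx29* 0.1103. The hypusine and diphthamide enzymes modify eIF5A and eEF2, and 3 of 9 were lower (33.3%). All of these were for diphthamide (*Dph1* at -0.51, *Dph2* at -0.40 and *Dph5* at -0.51). The hypusine genes *Dhps* (-0.16) and *Dohh* (-0.27) were not called. Of 9 mitochondrial translation factors, 3 were lower, *Tsfm* (adjusted p 0.309 without EV-RV replicate 2, 0.275 without IRF4-RV replicate 1 and 0.122 without IRF4-RV replicate 2), *Gfm1* (0.103 without EV-RV replicate 1, 0.103 without IRF4-RV replicate 1 and 0.263 without IRF4-RV replicate 2) and *Mtrf1l* (0.194 without EV-RV replicate 1 and 0.215 without IRF4-RV replicate 1, and 0.138 with DESeq2). Of 3 genes for selenocysteine and atypical elongation, *Gtpbp2* was higher (0.64).

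**Figure D5:**
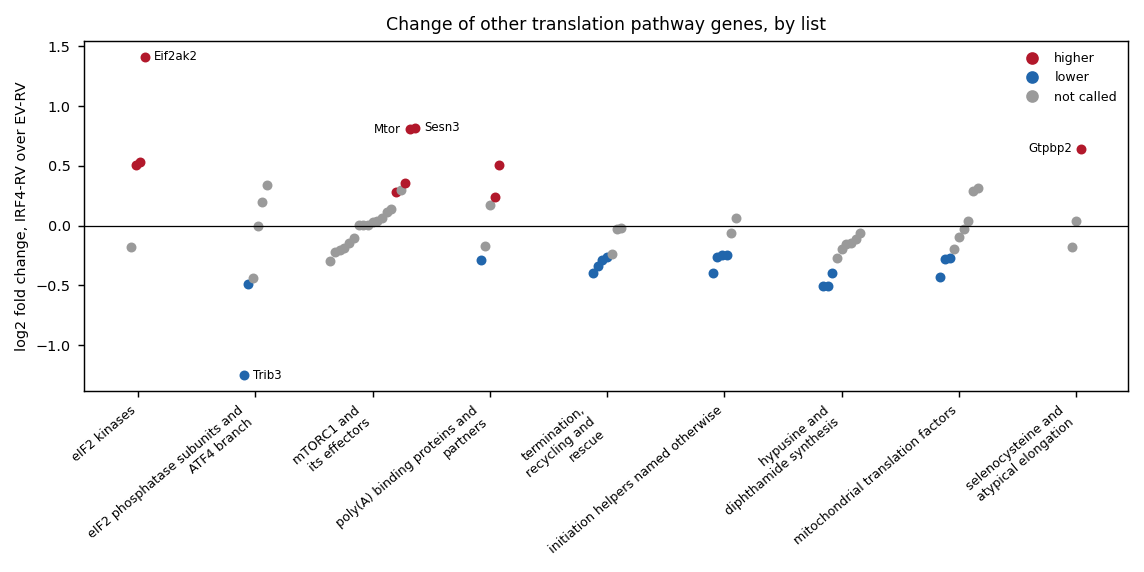
The log2 fold change of IRF4-RV over EV-RV (y axis) is plotted for the 68 tested pathway genes outside the factor genes, by list (x axis). Each point is a gene, colored by its call, and genes beyond 0.6 in either direction are named. Of the 4 eIF2 kinases, 3 lie above 0, and all 7 genes of termination, recycling and rescue lie under 0.

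Genes of the ribosome and of tRNA charging were counted in the same fit. Of 82 tested genes for cytosolic ribosomal proteins, 40 were higher (48.8%) and 1 was lower (1.22%), with a median of 0.22. Of 20 cytosolic aminoacyl-tRNA synthetase genes, 2 were higher (10%) and 12 lower (60%), with a median of -0.27. Among all genes tested, 16% were higher and 13.7% lower. The eEF1 and eEF2 subunit genes, with a median of 0.26, lay by their median nearer to the ribosomal protein genes than to the synthetase genes. The initiation factor genes, with -0.13 (-0.088 with the split by role), lay between the synthetase genes and all genes tested (median 0.0073). Genes of a list are not independent replicates, and differences between lists were not tested.

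Several of these genes have annotated pseudogenes, and how reads with several alignments were counted is not given in the sources used here. Copies with at least 97% identity over at least 200 bases held counts equal to 16.2% of those of *Eef1a1* (9 pseudogenes), 18.2% of *Eef1g* (3) and 13.7% of *Eif4a1* (3). The share was 30.2% for *Eif1* (8 genes, 7 of them pseudogenes, with *Emd* the most counted), 12.2% for *Eif2s2* and 11% for *Eif2s3x*. For *Eef2* this share was 0.627% and for *Eif5a* 0.681%. With the counts of pseudogene copies added to their parent genes, the log2 fold change of *Eef1a1* was 0.25 (edgeR adjusted p = 0.0315). That of *Eif1* was 0.062 (edgeR adjusted p = 0.607). The ratio of elongation to initiation counts was then 1.90 and 1.88 in the EV-RV libraries and 2.46 and 2.55 in the IRF4-RV libraries. Other overlaps on the opposite strand touch *Eif5b* with *Rev1* (1643 exonic bases), *Eif3j1* with *Spg11* (1107), *Eef2kmt* with *Alg1* (472) and *Eif1ad* with *Banf1* (428), and since use of the strand in counting is not given, reads in these stretches cannot be assigned.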

How the data were processed

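Bulk RNAseq libraries of T8 cells with EV-RV or IRF4-RV (n = 2 each) were used, grouped by their labels. According to the study's methods, STAR 2.4.0j aligned the reads to GRCm38 and featureCounts gave counts per gene; the submitters' processing notes also name FastQC 0.11.2 and DESeq2 1.22.1. The authors deposited these raw counts, whole numbers without normalization, for 55359 Ensembl identifiers, of which 52083 matched GENCODE mouse release 21. The annotation used for counting was not analysed here. Settings for strand and multiple alignments are not given in the sources used here.

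Genes passing filterByExpr were tested in R 4.3.3 with edgeR 4.0.16 (TMM factors 1.05 and 1.01 for EV-RV, 0.975 and 0.964 for IRF4-RV), its quasi-likelihood F test, and p-values were adjusted by Benjamini-Hochberg over 14637 genes at 0.1, the cutoff in the study. Standard errors are the log2 fold change divided by the square root of F. CPM use the counts of tested genes and the TMM factors. The p-values measure only the spread between these libraries, which come from 1 cell line. Replicates differed beyond sampling noise (chi-square per degree of freedom 14.1 for EV-RV and 13.1 for IRF4-RV).

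The genes and lists were chosen with earlier results of these data known. Values per library are given for the genes with the largest changes among those called (up to 8 in each direction), the defining gene of each role and paralog pairs. Alternatives were DESeq2 1.42.0, its size factors within edgeR, no TMM factors (library size only), stricter and looser filters on counts, a replicate block, an adjusted p under 0.05, a split by role and leaving out each library; adding pseudogene copies was chosen after seeing the data. The fit was tested on simulated counts in which 200 of 14637 genes were changed. Sequences are from RefSeq (GRCm38.p6).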

Additional observations from a re-analysis of the deposited data

How the results depend on the processing

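No called factor gene changed direction under any alternative run. The median log2 fold change of the elongation factor genes was the least stable value. It was -0.0021 with library size only, 0.019 with at least 50 counts in 2 libraries and 0.20 with the split by role, against 0.089, and lay between 0.073 and 0.11 with single libraries left out. That of the initiation factor genes was -0.13, lay between -0.16 and -0.11 with single libraries left out, and was -0.22 with library size only and -0.088 with the split by role. With the replicate number as a block, 11 factor genes were higher (6 without it), 6 of them initiation and 5 elongation factor genes, and 27 were lower (21 without it), and no call was lost. Over all genes the block gave 3426 higher and 2968 lower, against 2340 and 2009. The labels say only that libraries share a number, and deviations of same-numbered libraries correlated with Pearson's r of 0.26 across genes, which are not independent replicates. At an adjusted p under 0.05, 1 elongation factor gene was lower. With the split by role 1 was lower, *Eif5a*, which is counted there with the elongation factor genes. Under that split, 2 of 41 tested initiation factor genes were higher and 16 lower.

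With each library left out in turn, between 1 and 9 factor genes were higher and between 12 and 23 lower. Between 1 and 5 initiation factor genes were higher and between 10 and 20 lower, and between 0 and 4 elongation factor genes were higher and between 0 and 3 lower. Of 27 calls, 4 were lost without EV-RV replicate 1, 10 without EV-RV replicate 2 and 14 without either IRF4-RV library, and between 1 and 4 other genes gained one. DESeq2 lost 1 call and gained 1, and library size only lost 2 (both higher) and gained 6. In the simulation with 200 changed genes, most changes of 0.3 on the log2 scale were missed. The power of the real fit, with 2 libraries per group, was not measured.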

Other observations

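*Eif2s3y*, 1 of the factor genes, lies on the Y chromosome, and the study's sample list gives a male mouse as the source of tumor 8. *Eif2s3y* had 0 and 1 counts in EV-RV and 0 and 0 in IRF4-RV libraries, *Ddx3y* 0 in all 4 libraries, and *Uty* 0 and 1 counts in EV-RV and 0 and 0 in IRF4-RV libraries. *Kdm5d* had 2 and 6 counts in EV-RV and 1 and 1 in IRF4-RV libraries. *Xist*, expressed from the inactive X chromosome of female cells, had 0 and 1 counts in EV-RV and 0 and 2 in IRF4-RV libraries. *Kdm5d*, *Uty* and *Xist* were chosen after the values of *Eif2s3y* were seen.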
